A study of Homo sapiens with 6 samples.

Results

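Decorin (DCN), biglycan (BGN), lumican (LUM), fibromodulin (FMOD), osteoglycin (OGN), asporin (ASPN), prolargin (PRELP), osteomodulin (OMD) and podocan (PODN) are small leucine-rich proteoglycans, and versican (VCAN) is a large matrix proteoglycan. These 10 genes were taken by symbol from the 38557 gene rows counted in cardiomyocytes grown in 2 media. The family was picked because DCN and BGN were among the genes that differed most between the media, so the values of DCN and BGN between media are given as a description with no test. The other 8 were taken by family name, and their tests are those of the fit across all genes. All 10 symbols were found. Of these, 7 passed the filter on low counts and were tested, OGN and PRELP had too few counts, and OMD had 0 counts in all 6 libraries.

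Small leucine-rich proteoglycans are secreted proteins built of leucine-rich repeats, many of them carrying chondroitin, dermatan or keratan sulfate chains. They bind collagen fibrils and control how the fibrils assemble, and several bind growth factors such as transforming growth factor beta. Versican instead binds hyaluronan through its amino-terminal domain, with link proteins holding the complex together, and forms the swollen, cell-rich matrix of the developing heart. In the heart, decorin, biglycan and lumican are known mainly as products of fibroblasts and other mesenchymal cells, whereas versican is made in the embryonic heart by cardiomyocytes as well.

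The cultures were cardiomyocytes made from the established human stem cell line WTC11, an induced pluripotent line, and carried the label WT in every library. In 3 cultures the medium was RPMI plus B27, a serum-free supplement, and in 3 it was DMEM plus fatty acids. The labels number biological replicates 1 to 3 in each medium, without the make-up of either medium or how long the cells were kept in it. The libraries held 23232324 to 31035389 gene counts, so that a count of 0 in a library allows a level of up to 0.0889 to 0.129 CPM (counts brought to a common library size by the TMM method). This limit, of 3 counts, covers counting error only. RNA was taken from whole cultures, so fewer cells of a type and less RNA per cell cannot be told apart in any value below. Cardiomyocyte markers (10 genes, among them TNNT2, MYH6 and MYL7) summed to 28226 to 34684 CPM in RPMI plus B27 and 22308 to 32288 CPM in DMEM plus fatty acids, with no marker at 0.

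The members lie in few places of the genome (GRCh38, GENCODE 29). LUM (chr12:91102629-91111831, minus strand) and DCN (chr12:91140484-91183123, minus strand) are next to each other, 28652 bases apart, with KERA and EPYC, 2 further family members, on the other side of LUM. OGN, OMD and ASPN follow each other on chromosome 9 inside CENPP, a gene of the opposite strand with which their exons share 0 bases. FMOD (chr1:203340628-203351758, minus strand) and PRELP (chr1:203475828-203491352, plus strand) neighbour each other at a distance of 124069 bases. BGN (chrX:153494939-153509554, plus strand), PODN (chr1:53062052-53085502, plus strand) and VCAN (chr5:83471465-83582303, plus strand) stand away from the others. Exons of VCAN share 453 bases with the antisense gene VCAN-AS1, and exons of PODN share 467 bases with the antisense gene AL445183.1 and 280 with a pseudogene. Since the strand setting of the counting is not given in the sources used here, reads over these bases cannot be assigned with certainty.

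Upstream sequence was matched for 7 of the 10 members in RefSeq (GRCh38.p14), as the 250 bases before RefSeq's start of the gene. RefSeq and GENCODE differ in where some members start, so bases past the GENCODE start were cut off. Windows are printed for BGN, whose transcript was lower in DMEM plus fatty acids, and for ASPN, its class I relative, which did not pass the test. They are chrX:153494730-153494938 (plus strand, 209 bases) for BGN and chr9:92482507-92482756 (minus strand, 250 bases) for ASPN, and both end at the base before the GENCODE gene. Capitals mark GC boxes (GGGCGG) and TATA boxes (TATAAA) found on either strand, which do not overlap each other.
BGN: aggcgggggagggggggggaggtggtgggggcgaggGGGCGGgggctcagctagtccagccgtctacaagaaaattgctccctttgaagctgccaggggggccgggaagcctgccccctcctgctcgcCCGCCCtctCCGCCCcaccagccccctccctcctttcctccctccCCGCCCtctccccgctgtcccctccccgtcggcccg
ASPN: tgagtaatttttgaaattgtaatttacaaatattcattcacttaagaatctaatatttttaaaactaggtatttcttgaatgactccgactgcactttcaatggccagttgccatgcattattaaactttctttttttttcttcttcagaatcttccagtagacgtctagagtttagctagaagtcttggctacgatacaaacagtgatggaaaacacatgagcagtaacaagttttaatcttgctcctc
The BGN window held 4 GC boxes and 74.2% G and C, and the ASPN window 0 GC boxes and 32.4%. Of 35116 RefSeq windows, 36.9% held at least 1 GC box over the 209 bases and 42.6% over the 250 bases, with a median content of G and C of 57.4% and 58%. Neither window held TATAAA (in 7.85% of windows of 209 and 10.7% of 250 bases) or the AP-1 motif TGANTCA (5.58% and 6.57%). The E-box CANNTG occurred 0 times in BGN and 2 times in ASPN, against 56.1% and 61.8% of windows with at least 1. These are matches of letters only.

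Decorin and biglycan, the class I members that carry dermatan or chondroitin sulfate chains, had few counts in DMEM plus fatty acids. DCN stood at 37.9, 22.2 and 11.6 CPM in RPMI plus B27 (replicates 1 to 3), and at 0, 0.602 and 0.593 CPM in DMEM plus fatty acids. The groups did not overlap, and all RPMI plus B27 values lay above 10 CPM. The DCN counts behind these levels were 1006, 522 and 311 against 0, 18 and 20. Between libraries with the same replicate number, DCN was at least 293-fold higher in RPMI plus B27 for replicate 1, taking 3 counts for the 0, and 36.9-fold and 19.6-fold higher for replicates 2 and 3. Mean DCN was 60.0-fold higher in RPMI plus B27, at 23.9 ± 13.2 CPM against 0.398 ± 0.345 CPM (SD, n = 3 each). The fitted log2 fold change of DCN was -5.81 ± 0.81 (SE), where negative values here and below mean lower in DMEM plus fatty acids.

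BGN, which like decorin binds collagen and growth factors and is also known as a ligand of Toll-like receptors, stood at 121.5, 42.8 and 11.7 CPM in RPMI plus B27 and at 0.732, 1.97 and 0.741 CPM in DMEM plus fatty acids. The groups did not overlap, but the RPMI plus B27 replicates were themselves 10.3-fold apart, the widest spread of the tested members in that medium. Replicates 1, 2 and 3 were 166.0-fold, 21.7-fold and 15.9-fold higher in RPMI plus B27. The log2 fold change of BGN was -5.66 ± 0.94 (SE), -4.56 without RPMI plus B27 replicate 1 and -6.30 without DMEM plus fatty acids replicate 2.

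ASPN, a class I member with an aspartate-rich stretch and no known sugar chain, had lower counts than DCN and BGN in each RPMI plus B27 library. It stood at 3.16, 2.04 and 0.410 CPM in RPMI plus B27 and at 1.21, 1.47 and 0.237 CPM in DMEM plus fatty acids. The groups overlapped, and in both media replicate 3 was the low library. The log2 fold change of ASPN was -0.96 ± 0.82 (SE, edgeR adjusted p 0.585) without a block. With replicate number added as a block it was -0.89 ± 0.34 (SE, edgeR adjusted p 0.182). All 3 replicate pairs were lower in DMEM plus fatty acids, by 2.63-fold, 1.39-fold and 1.73-fold.

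**Figure D1:**
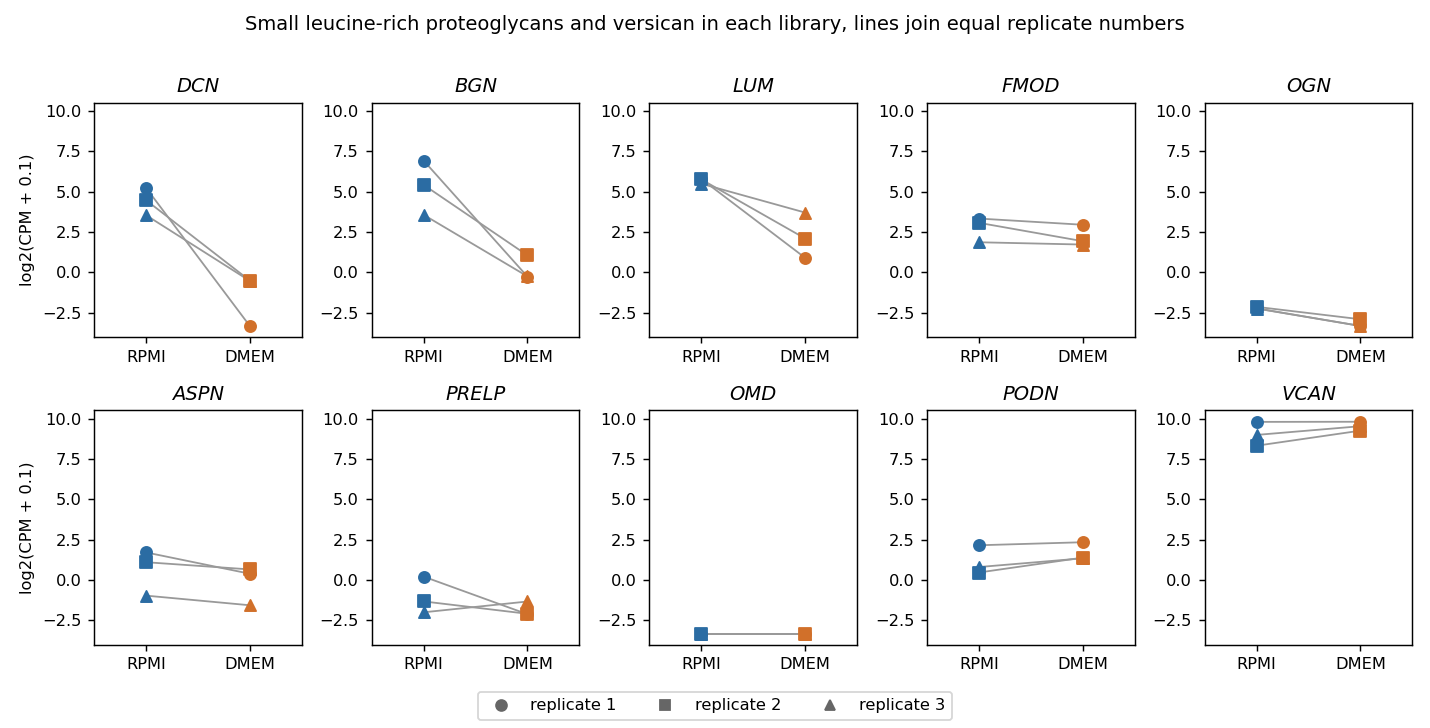
Level of each of the 10 members in each library, as log2(CPM + 0.1), in RPMI plus B27 (blue) and DMEM plus fatty acids (orange), with marker shapes for replicates and grey lines joining equal replicate numbers. Among the tested members, DCN, BGN and LUM drop in every pair, and so do FMOD and ASPN, by less. VCAN stays at the top of the scale in both media, and OMD is at 0 throughout.

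Lumican, the class II keratan sulfate member next to decorin in the genome, was tight in one medium and spread in the other. LUM stood at 55.2, 54.1 and 44.9 CPM in RPMI plus B27 and at 1.77, 4.18 and 12.9 CPM in DMEM plus fatty acids. The groups did not overlap. The 3 RPMI plus B27 libraries lay within 1.23-fold of each other, and the DMEM plus fatty acids libraries were 7.32-fold apart, with replicate 3 the highest. Within pairs, LUM was 31.3-fold, 12.9-fold and 3.47-fold higher in RPMI plus B27. The log2 fold change was -3.01 ± 0.63 (SE) with an adjusted p of 0.0728 in the edgeR fit without a block, which missed the threshold of 0.05. When replicate number was added as a block it was -3.37 ± 0.58 (SE) with an edgeR adjusted p of 0.0349, which passed. Over its 12 alternatives the adjusted p ran from 6.78e-06 to 0.222, with 3 calls, and the log2 fold change was -4.09 without DMEM plus fatty acids replicate 3.

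Fibromodulin, a class II member that competes with lumican for sites on collagen I, did not separate the media. FMOD stood at 9.98, 8.30 and 3.54 CPM in RPMI plus B27 and at 7.62, 3.71 and 3.20 CPM in DMEM plus fatty acids. Its groups overlapped, though within pairs FMOD was 1.31-fold, 2.23-fold and 1.11-fold higher in RPMI plus B27, and the log2 fold change was -0.59 ± 0.47 (SE, edgeR adjusted p 0.556 unblocked, 0.241 blocked). PRELP, which anchors basement membranes to connective tissue, was near the limit of detection, with 28, 7 and 4 counts in RPMI plus B27 and 3, 4 and 10 in DMEM plus fatty acids. Its order between the media differed among the pairs, and only RPMI plus B27 replicate 1 reached 1 CPM (1.05 CPM). OMD, a keratan sulfate member of bone, had 0 counts in all 6 libraries, which allows at most 0.0889 to 0.129 CPM.

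OGN, the class III member also called mimecan, had 3 counts in each RPMI plus B27 library and 0, 1 and 0 in DMEM plus fatty acids, all at or under the limit of 3 counts, so no fold is given. PODN, the class V member, was low but present in every library. It stood at 4.33, 1.28 and 1.64 CPM in RPMI plus B27 and at 4.95, 2.51 and 2.43 CPM in DMEM plus fatty acids. The PODN groups overlapped, and replicate 1 was the highest in both media. Within pairs, PODN was 1.14-fold, 1.97-fold and 1.48-fold higher in DMEM plus fatty acids. Its log2 fold change was 0.44 ± 0.53 (SE, edgeR adjusted p 0.710 unblocked, 0.269 blocked), and it ran from 0.03 to 1.16 when 1 library was left out.

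Versican, the hyaluronan-binding proteoglycan, was the highest member in every library, in counts and per transcript length. VCAN stood at 886.2, 318.6 and 506.4 CPM in RPMI plus B27 and at 891.0, 608.4 and 736.6 CPM in DMEM plus fatty acids. The groups overlapped, because RPMI plus B27 replicate 1 lay near the highest DMEM plus fatty acids library, and replicate 1 was the highest in both media. Within pairs, VCAN in DMEM plus fatty acids was 1.01-fold, 1.91-fold and 1.45-fold of its level in RPMI plus B27. The log2 fold change was 0.39 ± 0.35 (SE, edgeR adjusted p 0.613) without a block and 0.49 ± 0.20 (SE, adjusted p 0.199) with it. It was 0.85 without RPMI plus B27 replicate 1 and 0.10 without RPMI plus B27 replicate 2.

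Versican and lumican were set against each other within each library, a comparison added after the data were seen. There were 16.0, 5.89 and 11.3 VCAN counts per LUM count in RPMI plus B27, and 504.7, 145.6 and 57.0 in DMEM plus fatty acids. The groups did not overlap. The log2 ratio of VCAN to LUM was 3.35 ± 0.73 (SD, n = 3) in RPMI plus B27, against 7.33 ± 1.58 for DMEM plus fatty acids. The ratio was picked with both genes' values known and is given as a description, with no test.

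Of the counts of all 10 members, VCAN took 79.2%, 70.8% and 87.2% in RPMI plus B27 and 98.2%, 97.7% and 97.3% in DMEM plus fatty acids. These totals include DCN and BGN, which were picked for their difference between media, so the higher VCAN share is no independent result. Levels of different genes can be set side by side only per length, here as CPM per kb of the longest transcript that GENCODE tags as principal. On that scale VCAN was at 45.2 ± 22.9 in RPMI plus B27 and BGN at 24.4 ± 23.5 CPM per kb (SD, n = 3), and LUM at 17.1 ± 1.89 CPM per kb. VCAN was above LUM in all 3 libraries, and the spread of BGN overlapped both. BGN was above LUM in replicate 1 (50.6 against 18.4 CPM per kb) and below it in replicates 2 and 3 (17.8 against 18.0, and 4.89 against 14.9). DCN came next at 3.34 CPM per kb, or 12.4 with the shortest principal transcript, since its principal transcripts run from 1930 to 7156 bases. FMOD was at 2.20, PODN at 0.803 and ASPN at 0.758 CPM per kb. In DMEM plus fatty acids the order per kb was VCAN (59.0 ± 11.2 CPM per kb), LUM (2.09 ± 1.95), FMOD (1.46 ± 0.73), PODN (1.10 ± 0.48), BGN (0.478 ± 0.297), ASPN (0.393 ± 0.263) and DCN (0.0557 with the longest and 0.206 with the shortest principal transcript). From LUM to ASPN the library values of each gene overlapped those of the next in that order, by the least for PODN (lowest 0.808) and BGN (highest 0.821), and the place of DCN depends on the transcript length.

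**Figure D2:**
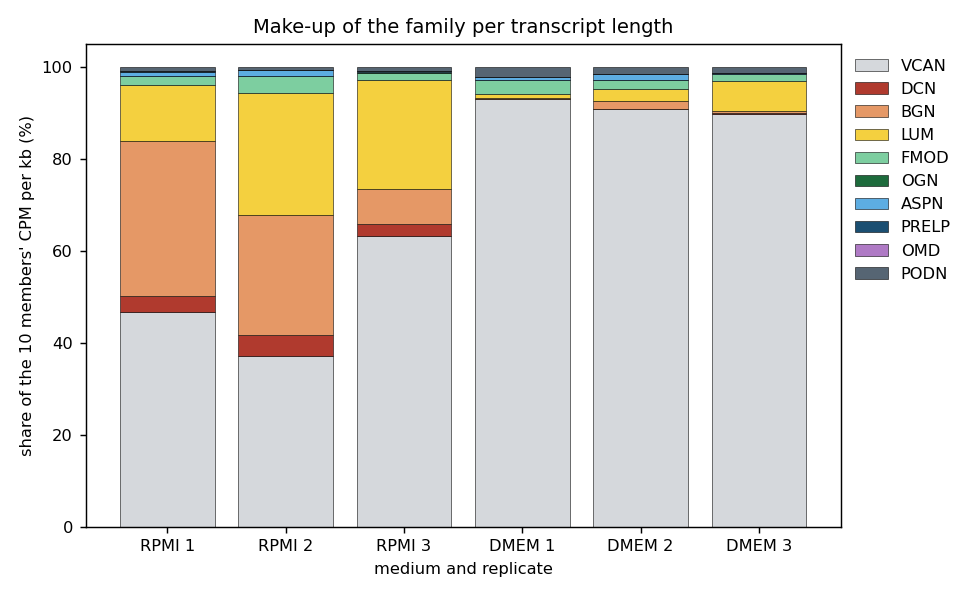
Share of each member in the summed CPM per kb of the 10 members (longest principal transcript), in percent, for each library. VCAN takes 37.1% to 63.3% in RPMI plus B27, where BGN and LUM fill most of the rest, and 89.8% to 93.0% in DMEM plus fatty acids. The sums include DCN and BGN, which were picked for their difference between media.

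Of the 7 tested members, 5 had a lower and 2 a higher fitted level in DMEM plus fatty acids, and 3 (DCN, BGN and LUM) did not overlap between media, where 25.6% of the 16107 tested genes did not overlap (12.8% lower and 12.8% higher). DCN entered the test through its RPMI plus B27 libraries, since the filter asks for 3 libraries and DMEM plus fatty acids replicate 1 had 0 counts. Of the 5 tested members other than DCN and BGN, 0 passed edgeR's quasi-likelihood test at an adjusted p under 0.05, where 1.36% of all tested genes passed (1.07% lower and 0.292% higher). At an unadjusted p under 0.05 in the fit without a block there was 1 (LUM), against 17.7% of all tested genes. In the blocked fit 1 of the 5 passed (LUM), where 4.78% of all tested genes passed (3.42% lower and 1.36% higher). DESeq2 also called LUM alone of the 5, where it called 1218 of the 16107 tested genes. Since the family was chosen with this contrast known, these counts are no independent evidence of a direction. A p above the threshold does not show that FMOD, ASPN, PODN and VCAN were equal in the media.

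**Figure D3:**
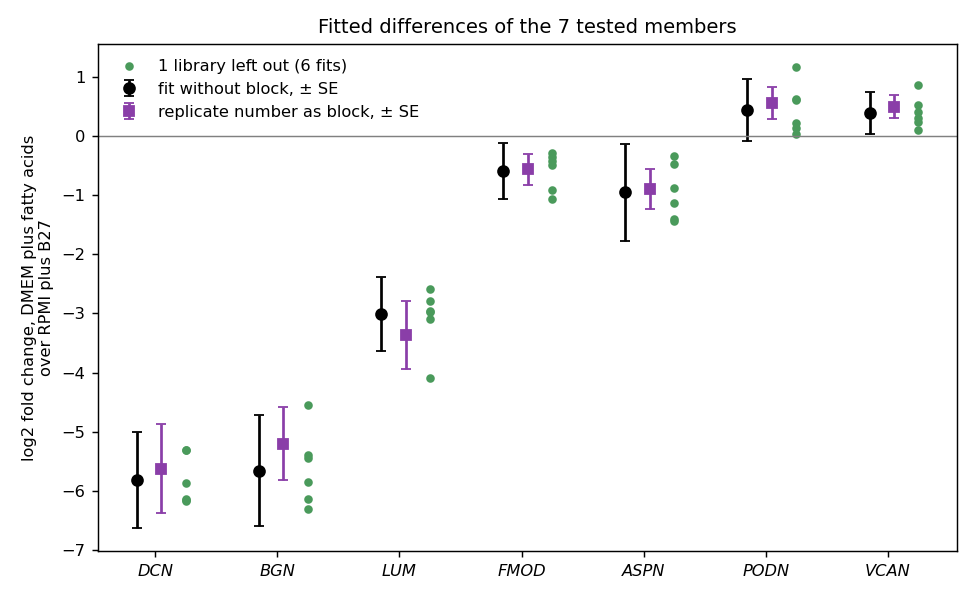
Fitted log2 fold change of the 7 tested members, with SE (negative: lower in DMEM plus fatty acids), without a block (circles) and blocked by replicate number (squares), and in 6 fits that left out 1 library each (small points). DCN (-5.81), BGN (-5.66) and LUM (-3.01) lie well below 0, and FMOD, ASPN, PODN and VCAN lie between -0.96 and 0.44.

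Inside RPMI plus B27 the tested members shared their highest library. Replicate 1 was the highest of the 3 for all 7 tested members, where replicates 1, 2 and 3 were the highest for 40.8%, 24.9% and 34.2% of all tested genes. Replicate 3 was the lowest for DCN, BGN, LUM, FMOD and ASPN, and replicate 2 for PODN and VCAN. In DMEM plus fatty acids the order was not shared, with replicate 1 highest for FMOD, PODN and VCAN, replicate 2 for DCN, BGN and ASPN, and replicate 3 for LUM. Over all tested genes these shares were 36.6%, 27.5% and 35.9%.

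Across the 6 libraries, Pearson's r of log2 CPM was 0.94 between DCN and BGN, 0.96 between DCN and LUM and 0.85 between BGN and LUM. It was 0.93 between VCAN and PODN and 0.83 between FMOD and ASPN. VCAN against DCN, BGN and LUM gave -0.47, -0.34 and -0.48. These values describe 6 libraries that share medium and replicate number, and are not tests.

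Among the tested genes with the profile closest to that of DCN over the 6 libraries were ELF4 (an ETS family transcription factor), ASPHD1, COL3A1 (collagen III) and MARCHF4 (a membrane ubiquitin ligase), with r from 0.9935 to 0.9979. COL3A1 went from 2137 to 448.1 CPM on average. The genes closest to BGN were EMC2, TMSB4X (thymosin beta 4, which binds actin monomers), LOX (lysyl oxidase, which cross-links collagen), DKK2 (a Wnt modulator) and ASPH, with r from 0.9967 to 0.9979. LOX went from 71.7 to 5.42 CPM on average. The genes closest to VCAN were LOC105377203, NPIPA5, TKT (transketolase), AHDC1 and CIDEB, with r from 0.9794 to 0.9949. TKT went from 80.2 to 95.1 CPM, and LOC105377203 (0.213 and 0.393 CPM) and CIDEB (0.690 and 0.967 CPM) were low in both media. For DCN, BGN and VCAN alike, these r are the highest among 16107 tested genes over only 6 libraries, and are a description with no test. TMSB4X and NPIPA5 have near-identical copies, so their counts are uncertain.

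Genes that lie beside the members on the chromosome were read next. BTG1, the next coding gene beyond DCN at 957154 bases, averaged 127.9 ± 7.07 and 177.6 ± 9.62 CPM (first RPMI plus B27, then DMEM plus fatty acids, as for all pairs of means below, SD, n = 3 each, log2 fold change 0.47 ± 0.11, edgeR adjusted p 0.0866). KERA and EPYC, on the far side of LUM, averaged under 0.1 CPM in each medium. HAPLN1, the link protein that fastens versican to hyaluronan, lies 55501 bases from VCAN on the opposite strand. HAPLN1 averaged 132.2 ± 64.9 and 21.7 ± 14.8 CPM, with a log2 fold change of -2.60 ± 0.58 (SE, edgeR adjusted p 0.0832 without and 0.0236 with the block). VCAN and HAPLN1 thus differed in the direction of their fitted values, and this difference was not tested.

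The rest of the proteoglycan pathway was read through lists chosen by role, beside a median log2 fold change of 0.01 over all tested genes. Of all tested genes, edgeR called 1.36%, the block called 4.78%, and 17.7% had an unadjusted p under 0.05. DESeq2 called 1218 of the 16107. Counts in the lists and marker sets below stand beside these shares. Of the 8 other small leucine-rich proteoglycan genes, 3 had enough counts (TSKU, CHAD and PODNL1), and 0 of the 3 passed edgeR's test, with 1 at an unadjusted p under 0.05 and 1 called by DESeq2, TSKU in both cases. TSKU (tsukushi, which binds bone morphogenetic proteins) was at 30.8 ± 4.99 and 19.6 ± 2.15 CPM (log2 fold change -0.65 ± 0.17, edgeR adjusted p 0.111). CHAD and PODNL1 averaged under 3 CPM in both media.

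Hyalectans, link proteins, hyaluronan enzymes and receptors numbered 14 tested of 18, with a median of -0.26. An unadjusted p under 0.05 was reached by 4 of the 14 (17.7% of all tested genes), and DESeq2 called 3. HAPLN3, a link protein, was the single gene called in edgeR without a block, from 15.7 ± 3.19 to 3.96 ± 0.84 CPM (log2 fold change -1.99 ± 0.25, edgeR adjusted p 0.0292). CEMIP2, which breaks hyaluronan down, was at 145.0 ± 106.2 and 113.7 ± 41.2 CPM (log2 fold change -0.35 ± 0.50, adjusted p 0.761), and HYAL2, a hyaluronidase, at 55.1 ± 8.16 and 48.9 ± 6.59 CPM (-0.17 ± 0.16, adjusted p 0.616). Genes that only the block called were named after their values were seen, here and in the next lists. In the blocked fit 4 passed, HAPLN3, HAPLN1 and CEMIP lower and HAS2, the main hyaluronan synthase of the embryonic heart, higher (HAS2 11.1 ± 5.00 and 22.4 ± 11.9 CPM, 1.02 ± 0.52, edgeR adjusted p 0.360 without and 0.0384 with the block).

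Heparan sulfate and other cell-surface or basement membrane proteoglycans numbered 18 tested of 19, with a median of -0.29 and 13 lower. None passed in edgeR (0 of 18), and 5 had an unadjusted p under 0.05 (17.7% of all tested genes). DESeq2 called 4 (1218 of all 16107 tested genes) and the block 3 (HSPG2, GPC6 and SPOCK2, against 4.78% of all tested genes). HSPG2 (perlecan, of basement membranes) was at 803.8 ± 229.6 and 377.9 ± 52.9 CPM (log2 fold change -1.09 ± 0.24, edgeR adjusted p 0.0808 without and 0.0237 with the block). COL18A1, a basement membrane collagen with heparan sulfate chains, had -0.65 ± 0.17 (adjusted p 0.116), and GPC1 (glypican 1) 0.11 ± 0.17 (adjusted p 0.786).

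Enzymes and carriers that build and sulfate the sugar chains numbered 31, all tested, with a median of -0.30 and 22 lower. In edgeR 0 of 31 passed, with 12 at an unadjusted p under 0.05 (17.7% of all tested genes), 3 called with the block (CHPF, CHSY1 and PAPSS2, against 4.78% of all tested genes) and 3 by DESeq2. CHPF, a chondroitin polymerising factor, was at 350.9 ± 4.15 and 228.5 ± 25.5 CPM (log2 fold change -0.62 ± 0.13, edgeR adjusted p 0.0667 without and 0.0436 with the block). FAM20B, the kinase of the linker sugar, had -0.06 ± 0.14 (adjusted p 0.866), a sign that turned under scaling by total counts (0.05), and CHPF2 had -0.34 ± 0.12 (adjusted p 0.215). The summed level of the list was 1176 to 1204 CPM in RPMI plus B27 and 945.5 to 985.9 CPM in DMEM plus fatty acids, without overlap.

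Proteases and processing enzymes of proteoglycans numbered 13 tested of 15, with a median of -0.68 and 12 lower. An unadjusted p under 0.05 was reached by 5 of the 13 (17.7% of all tested genes). MMP2 (gelatinase A, a metalloproteinase that can cleave decorin) was the single call without a block, from 99.7 ± 26.3 to 23.7 ± 8.04 CPM (log2 fold change -2.07 ± 0.30, edgeR adjusted p 0.0351). The block also called TLL1, and DESeq2 called 5 (MMP2, TLL1, ADAMTS9, MMP14 and PCOLCE). ADAMTS9, a protease of versican, was at 241.9 ± 54.1 and 151.1 ± 17.2 CPM (-0.68 ± 0.18, adjusted p 0.124). BMP1, which removes the propeptides of biglycan and of collagens, had -0.27 ± 0.24 (adjusted p 0.604), and HTRA1 had -0.09 ± 0.18 (adjusted p 0.839), with a sign that turned under scaling by total counts (0.02).

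Collagens, other matrix partners, growth factors and receptors of the family numbered 28 tested of 30, with a median of -1.31 and 25 lower. In this list 8 genes passed, all lower in DMEM plus fatty acids: the fibrillar collagens COL1A1, COL3A1, COL5A1, COL5A2 and COL11A1, the fibril-associated collagen COL12A1, FBN1 (fibrillin 1) and TNC (tenascin C). Lower calls made up 1.07% of all tested genes. An unadjusted p under 0.05 was reached by 17 of the 28 (17.7% of all tested genes), and DESeq2 called 15. With total gene counts as the scaling 5 passed (COL3A1, COL5A1 and TNC did not), and with at least 10 counts in every library 4. COL1A1, the main chain of collagen I and a partner of decorin, lumican and fibromodulin, was at 1829 ± 940.2 and 278.2 ± 61.6 CPM (log2 fold change -2.72 ± 0.38, edgeR adjusted p 0.0338). COL5A2, of the collagen V that starts fibrils, had -1.77 ± 0.19 (adjusted p 0.0242) and COL12A1 -2.63 ± 0.33 (adjusted p 0.0292). COL3A1 (-2.25), COL5A1 (-1.49), COL11A1 (-4.47), FBN1 (-3.25) and TNC (-4.43) had edgeR adjusted p values of 0.0402 to 0.0486, and COL11A1 was at -3.23 without RPMI plus B27 replicate 1. FN1 (fibronectin) was at 4223 ± 2273 and 713.3 ± 328.0 CPM (-2.57 ± 0.47, adjusted p 0.0540 without and 0.0486 with the block). COL2A1, the collagen of cartilage, was at 1345 ± 156.9 and 1557 ± 79.6 CPM (0.21 ± 0.15, adjusted p 0.513).

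With 1 library left out, the number of calls in this list was 3 without RPMI plus B27 replicate 1, 1 without replicate 2 and 6 without replicate 3, and 0 without any 1 of the 3 DMEM plus fatty acids libraries. With the block 14 passed, 13 lower and 1 higher. The higher one was KDR, a receptor that decorin can bind, and among the lower ones was TLR4, a receptor of decorin and biglycan (log2 fold change -3.42 ± 0.67, edgeR adjusted p 0.0609 unblocked and 0.0236 blocked). The 10 called genes of all these lists kept their direction in each of these fits and their call in 0 to 2 of the 6.

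**Figure D4:**
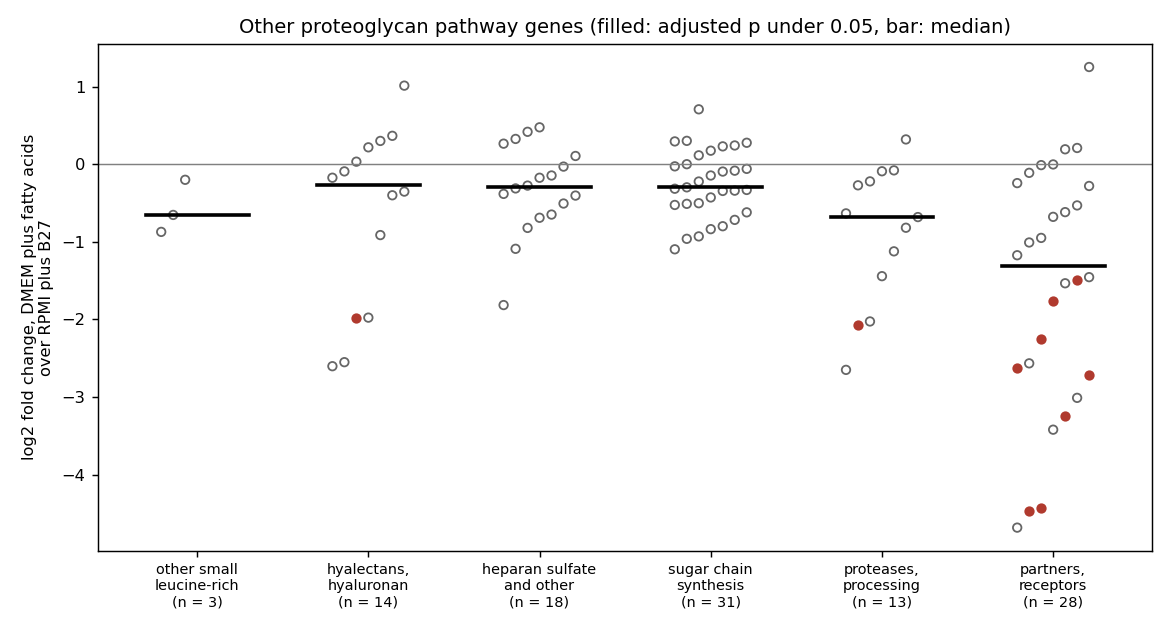
Log2 fold change of each tested gene in 6 lists of the proteoglycan pathway (negative: lower in DMEM plus fatty acids), with filled points for genes with an adjusted p under 0.05 and bars for the medians. The 28 partners and receptors have the lowest median (-1.31) and 8 of the 10 filled points.

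Markers of other cell types were measured beside the family. Fibroblast markers (12 genes, all tested) were lower in DMEM plus fatty acids for 11 of 12, with 5 called in edgeR (POSTN, COL1A1, COL3A1, FBN1 and LOX), 3 of them also in the partner list. Of all tested genes 1.07% were called lower. At an unadjusted p under 0.05 there were 9 of the 12 (17.7% of all tested genes), and DESeq2 called 8. Without 1 library the edgeR calls numbered 2 (without RPMI plus B27 replicate 1), 0 (without replicate 2), 6 (without replicate 3) and 0 in each fit without a DMEM plus fatty acids library. Their summed level was 8438, 5365 and 4324 CPM in RPMI plus B27 (replicates 1 to 3) and 795.0, 1986 and 1821 CPM in DMEM plus fatty acids. No fibroblast marker was at 0. The other 7 markers, all printed here, went on average from 35.2 to 2.84 CPM for PDGFRB, from 5.14 to 0.643 for THY1, from 50.8 to 21.2 for PDGFRA, from 0.643 to 0.183 for TCF21, from 1574 to 698.6 for COL1A2, from 32.3 to 29.1 for S100A4 and from 13.1 to 16.3 for DDR2. The block called PDGFRA and PDGFRB as well. The 9 small leucine-rich members together summed to 233.3, 131.2 and 74.1 CPM and to 16.4, 14.6 and 20.4 CPM in the same libraries. DCN and BGN are part of this sum and were picked for their difference between media, so its separation is no independent result. In RPMI plus B27 replicate 1 was the highest and replicate 3 the lowest in both the fibroblast and the member sum. The orders differed in DMEM plus fatty acids. There the fibroblast sum was highest in replicate 2 and lowest in replicate 1, and the member sum highest in replicate 3 and lowest in replicate 2.

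Smooth muscle markers were lower for 8 of 8, with LMOD1 called (CNN1 and MYLK as well with the block), and summed to 1663 to 2221 and 425.1 to 1271 CPM. Of the 8, 5 had an unadjusted p under 0.05 and DESeq2 called 2. Epicardial markers were lower for 6 of 6 tested of 9, with KRT8 called (KRT18, KRT19 and TBX18 as well with the block), and summed to 1974 to 2399 and 884.9 to 1098 CPM. Of the 6, 4 had an unadjusted p under 0.05 and DESeq2 called 4. Most of the epicardial sum was keratins, on average KRT8 (1301 and 605.8 CPM), KRT18 (689.0 and 335.8 CPM) and KRT19 (179.5 and 66.9 CPM). TBX18 averaged 4.98 and 1.10 CPM and BNC1 3.27 and 1.63 CPM. WT1, UPK3B, ALDH1A2 and MSLN averaged at most 0.736 CPM in each medium. The calls of LMOD1 and KRT8 were lost in each of the 6 fits without 1 library. Without DMEM plus fatty acids replicate 2, ACTA2 and TAGLN were called. In DMEM plus fatty acids (replicates 1 to 3) ACTA2 stood at 76.5, 371.8 and 70.2 CPM and TAGLN at 48.6, 253.3 and 47.3 CPM. Endothelial markers summed to 54.9 to 247.1 and 118.7 to 466.9 CPM, most of it KDR (27.5 to 238.9 and 114.5 to 463.2 CPM) and ENG (7.64 to 25.2 and 3.41 to 5.22 CPM). PECAM1, CDH5, VWF and ERG averaged at most 0.264 CPM in each medium, with CDH5 and ERG at 0 in all DMEM plus fatty acids libraries. In edgeR 0 of the 3 tested endothelial genes passed, with 2 at an unadjusted p under 0.05 and 2 called by DESeq2. These were ENG and TEK in both cases, both lower (log2 fold change -1.84 ± 0.44 and -2.13 ± 0.51). TEK averaged only 0.779 and 0.179 CPM. The block called KDR alone, higher. Cartilage and bone markers summed to 1241 to 1558 and 1515 to 1675 CPM, most of it COL2A1, with IBSP at 0 in all libraries. In edgeR 0 of their 6 tested genes passed, with 2 at an unadjusted p under 0.05 and 2 called by DESeq2, and the block called SOX9, lower. Of the 10 cardiomyocyte markers 0 passed in edgeR, with 3 at an unadjusted p under 0.05 and 3 called by DESeq2, and their median was -0.08. The same 3 genes stood behind both counts, MYH7 and ACTN2 lower and MYH6 higher. MYH6 averaged 4758 ± 1119 and 8653 ± 1931 CPM (log2 fold change 0.86 ± 0.27, edgeR adjusted p 0.166). The block called MYH7 (adjusted p 0.0359) and ACTN2 (0.0494), both lower. The part of other cell types in the lower DCN, BGN and LUM was not tested.

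**Figure D5:**
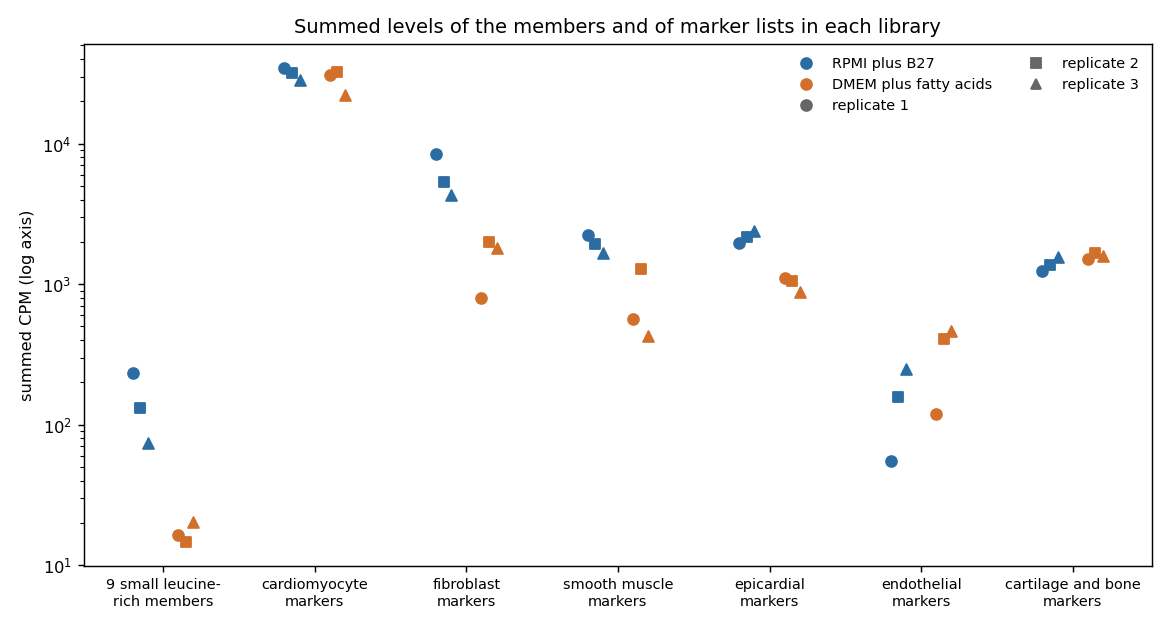
Summed CPM (log axis) of the 9 small leucine-rich members and of 6 marker lists in each library, RPMI plus B27 in blue and DMEM plus fatty acids in orange. The members, fibroblast, smooth muscle and epicardial lists do not overlap between media, and the cardiomyocyte, endothelial and cartilage and bone lists do. The member sum includes DCN and BGN, which were picked for their difference between media. The epicardial sum is mostly the keratins KRT8, KRT18 and KRT19.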

How the data were processed

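RNA of 6 cultures was sequenced after stranded mRNA library preparation (labels' protocols). The authors deposited 1 file of raw counts per gene symbol for each library, not normalized and not pooled. Per the submitters' processing notes STAR, HTSeq and hg38 were used. Their settings, versions and gene annotation are not given in the sources used here. The 5 summary rows were left out, and genes held 84.4% to 87.2% of all counts in the files. Reads overlapping several genes (3.90% to 4.15%) or aligned to several places (3.05% to 4.10%) were set aside in those rows.

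Groups and replicate numbers come from the sample titles. The titles call the replicates biological, and nothing says that they came from separate differentiations, so p values measure the spread between these cultures. The test across genes was that of edgeR 4.0.16 under R 4.3.3 (quasi-likelihood test, TMM scaling, filterByExpr with a minimum count of 10 and a total of 15, 16107 genes, Benjamini-Hochberg adjustment over all of them, threshold 0.05). CPM are TMM-scaled, SE are implied by the F statistic, and log2 CPM for correlations had a prior count of 2. DESeq2 1.42.0, other scalings and filters, a replicate block and leaving out each library were the alternatives. The fit was also run on simulated counts with planted fold changes, the outcome of which is not given here. Deviations from the medium mean correlated at 0.313, 0.428 and 0.365 between libraries with the same number and at -0.242 to -0.136 between others. Such deviations sum to 0 over the 3 libraries of a medium, so positive values for equal numbers bring negative ones elsewhere. The numbers were taken as pairing the libraries. Calls are those of the fit without a block, which leaves the pairing out, unless another fit is named. It called 219 genes, and the blocked fit 770. This pairing comes from the data, and the labels do not say what the numbers share.

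Promoters are from RefSeq (GRCh38.p14, 7 of 10 members matched). Lists were chosen by role. Named from each pathway list were the called genes and the 3 with the highest mean CPM, and for DCN, BGN and VCAN the 5 genes with the highest r, of which 1 is not reported here. Marker genes and genes called by alternatives alone were named after their values were seen. Members and lists were chosen with earlier results of these data known.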

Additional observations from a re-analysis of the deposited data

How the results depend on the processing

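The number of genes called between media (219 of 16107, 78.5% of them lower in DMEM plus fatty acids) was 217 with DESeq2 size factors, 202 with total gene counts (63.4% lower, with a median of all genes of 0.12 in place of 0.01), 770 with the replicate block, 539 with no filter, 119 with at least 10 counts in every library, 1218 by the DESeq2 Wald test (68.0% lower) and 3 to 131 with 1 library left out. The number of called members other than DCN and BGN (0) was 1 with the replicate block, 1 with no filter and 1 by the DESeq2 Wald test, LUM each time, and 0 to 0 with 1 library left out. The 10 called pathway genes became 7 with total gene counts, 26 with the replicate block, 23 with no filter, 6 with at least 10 counts in every library, 31 by the DESeq2 Wald test and 0 to 8 with 1 library left out. DCN, BGN, LUM, FMOD, ASPN, PODN and VCAN kept their direction in every alternative that gave a value. DCN and ASPN gave none with at least 10 counts in every library. For DCN and BGN, which were picked for their difference between media, the kept direction is a description only. Among the list genes named by rule, whose values alone were compared across alternatives, the sign turned for 5: CHAD (0.20 with the replicate block, and up to 0.97 with 1 library left out, from -0.63), FAM20B (0.050 with total counts, -0.18 to 0.069), HTRA1 (0.020 with total counts, -0.22 to 0.064), CEMIP2 (-0.71 to 0.42) and GPC1 (-0.0048 to 0.25), the ranges being those with 1 library left out. Some alternatives use other sets of genes or fewer libraries, and the cause of these changes was not tested. PRELP and OGN had too few counts for a test at this depth.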
